A study of Homo sapiens with 4 samples.

Results

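Carbonic anhydrases, the lactate and proton exporters of the cell surface, LDHB and 2 bicarbonate transporters were followed here as a set of 9 genes: CA9, CA12, CA2, SLC16A1, SLC16A3, BSG, LDHB, SLC4A2 and SLC4A7. They were picked by symbol out of the 23228 genes in the count tables, and 8 of them were among the 12706 genes with enough reads to test. The set was chosen by the values of the same contrast that is described here, with CA9 as its lead because it had the largest decrease among called genes. The values, intervals and calls of the 9 genes are therefore given as a description of the fit over all genes, with no p, and a call of a member is no independent evidence of its difference.

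ES2 is an established cell line of human ovarian cancer, and the cells were grown in RPMI medium with 10% fetal bovine serum. One group received vehicle (0.1% DMSO) and the other EC359 at 10 nM, a small-molecule inhibitor of the leukemia inhibitory factor receptor LIFR, and both were harvested after 12 h. RNA was extracted from the cells, and each treatment had 2 libraries, which the study describes as biologically independent, all of a single cell line at a single dose and time. The comparison asks which transcripts differ when LIFR is inhibited.

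A cell that ferments glucose has to dispose of lactate and protons. LDHA mainly turns pyruvate into lactate and LDHB mainly runs the opposite way, the monocarboxylate transporters SLC16A1 (MCT1) and SLC16A3 (MCT4) carry lactate together with a proton across the plasma membrane, and BSG (basigin) is the chaperone that brings both to the surface. Carbonic anhydrases interconvert carbon dioxide and bicarbonate, CA9 and CA12 with their catalytic domain outside the cell and CA2 in the cytosol, while SLC4A2 exchanges chloride for bicarbonate and SLC4A7 imports sodium with bicarbonate. CA9 and SLC16A3 are known targets of the hypoxia-inducible factors, which bind a short core motif in DNA.

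The libraries held between 25572494 and 31707553 reads assigned to genes, and the spread between replicates of a treatment was small, with a biological coefficient of variation of 3.5%. Of the 12706 tested genes, 139 passed the threshold of 0.01 on the adjusted p and count as called (edgeR quasi-likelihood fit, Benjamini-Hochberg adjustment), 38 higher and 101 lower with EC359, or 52 higher and 68 lower when libraries were scaled to total counts only. This is 1.09% of tested genes in either direction and 0.795% in the lower direction. Vimentin (VIM), N-cadherin (CDH2) and fibronectin (FN1) had at least 3695 reads in every library and the keratins KRT8, KRT18 and KRT7 at least 556. The epithelial markers EPCAM and CDH1 and the ovarian markers MUC16 and MSLN had at most 2 reads, and PAX8 had at most 41. Of the leukocyte, endothelial and hepatocyte markers, 8 of 10 had at most 6 reads in any library, the exceptions being CD68, with at least 2296, and CDH5, with at least 3118. None of these markers was called. LIFR, the drug's target, averaged 1500 ± 35.0 in vehicle libraries and 1566 ± 65.9 in EC359 libraries (SD, n = 2 libraries each). These are normalized counts, scaled so that all libraries have the same effective size, and LIFR was not called (log2 fold change 0.06, edgeR adjusted p = 0.555). Neither its co-receptor IL6ST (log2 fold change 0.18, edgeR adjusted p = 0.0203) nor its ligand LIF (log2 fold change -0.09, edgeR adjusted p = 0.230) was called.

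CA9 lies on chromosome 9 at chr9:35673925-35681156 of GRCh37, on the plus strand. Promoter sequence is shown for CA9 and SLC16A3, the members with the lowest fitted log2 fold changes, and for CA12, the sister enzyme of CA9 on the cell surface. Each line is the RefSeq sequence of the 120 bases before an annotated start in GRCh38.p14, 5′ to 3′ on the strand of the gene, and capitals mark every ACGTG or GCGTG, the core to which hypoxia-inducible factors bind, on either strand.
CA9, chr9:35673808-35673927, plus strand: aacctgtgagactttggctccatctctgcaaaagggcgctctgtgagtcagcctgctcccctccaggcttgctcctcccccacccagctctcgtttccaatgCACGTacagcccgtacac
CA12, chr15:63381847-63381966, minus strand: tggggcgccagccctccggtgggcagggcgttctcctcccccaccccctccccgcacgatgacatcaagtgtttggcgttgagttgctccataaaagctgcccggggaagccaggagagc
SLC16A3, the second of 5 annotated starts, chr17:82228922-82229041, plus strand: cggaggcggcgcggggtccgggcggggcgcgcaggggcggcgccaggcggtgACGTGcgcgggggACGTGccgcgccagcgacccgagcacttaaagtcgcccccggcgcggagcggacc

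The CA9 sequence held a single match, an ACGTG on the minus strand 14 to 18 bases before the start. The start of SLC16A3 that is shown held 2 on the plus strand, at 51 to 55 and 64 to 68 bases. It is the only annotated start of SLC16A3 with an ACGTG in the 250 bases before it. Starts 4 and 5 of SLC16A3 held GCGTG there, and starts 1 and 3 held neither core. ACGTG also lay before starts 3 and 4 of SLC4A2 and start 2 of BSG, genes that were not called. CA12 held none in these 120 bases and a single GCGTG on the minus strand farther out, 230 to 234 bases before its start. With all 250 bases before each start and both strands searched, ACGTG or GCGTG occurred in 11 of 16 promoters of 7 members and in 43.2% of all 35116 promoters. The 7 do not include CA2, which was left out of the member search, or SLC16A1. Taken separately, ACGTG was in 5 of the 16 and in 18.5% of all promoters, and GCGTG was in 9 of the 16 and in 32.2%. The 16 are not independent, since starts of SLC4A2 lie close enough together to share bases, and the palindromic copies in SLC4A2 and BSG match on both strands. LDHB held neither core. The STAT motif TTCNNNGAA was in 0 of the 16 and in 6.57% of all promoters. These are letter matches in a reference and were not measured in ES2 cells.

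CA9 fell with EC359. Its raw counts were 524 and 596 with vehicle and 306 and 314 with EC359, from larger libraries. At the common library size these were 582 and 663 normalized counts with vehicle and 271 and 293 with EC359. Both EC359 libraries lay below both vehicle libraries, and the gap between the groups was several times the distance between replicates. The group means were 623 ± 57.1 and 282 ± 16.0 (SD, n = 2 libraries each), a log2 fold change of -1.14 (SE 0.0936, 95% interval -1.35 to -0.94). In linear terms CA9 RNA fell by 54.7%, or was 2.21-fold lower. In RNA from bulk cells, fewer cells expressing a gene and less RNA per cell cannot be told apart. CA9, the gene on which the set was chosen, was the only member called, 1 of 8 tested, beside 1.09% of all tested genes called in either direction. It was not called when either EC359 library was left out, with a log2 fold change of -1.09 without replicate 1 and -1.20 without replicate 2.

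CA12, the other carbonic anhydrase with an extracellular active site, was weakly expressed. Its normalized counts were 103 and 93.5 with vehicle and 101 and 92.4 with EC359, so the groups overlapped. The log2 fold change was -0.03 (SE 0.16, 95% interval -0.38 to 0.33), which is -23.1% to 25.5% in linear terms. CA2, the cytosolic enzyme, had 1 and 4 raw reads with vehicle and 2 and 3 with EC359 and was not tested. A change of CA2 was not detectable at this depth.

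**Figure D1:**
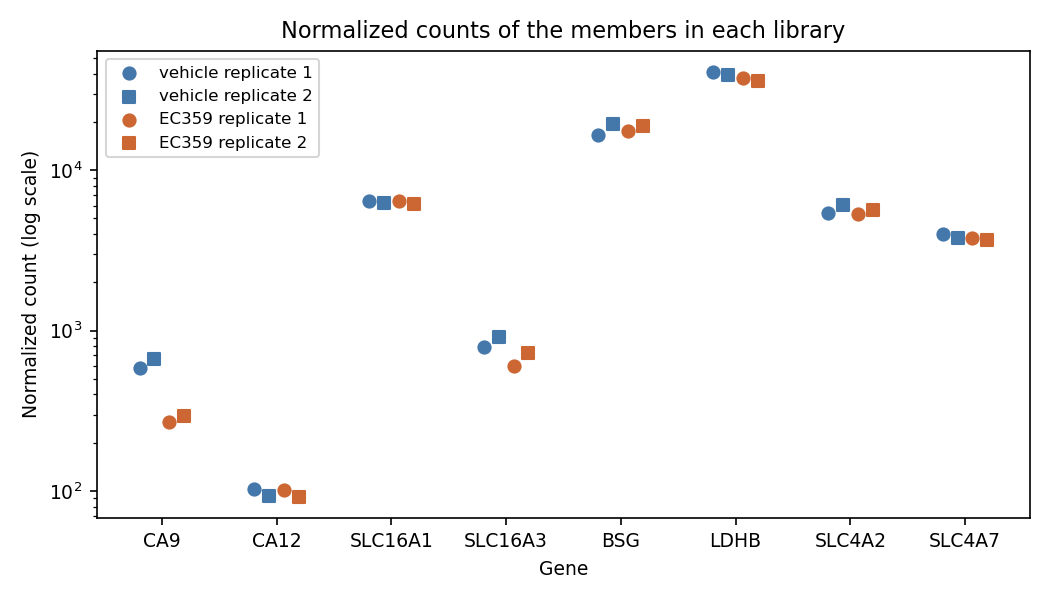
Normalized counts (log scale) of the 8 tested genes in each of the 4 libraries; each point is a library, circles are replicate 1 and squares replicate 2, vehicle in blue and EC359 in orange. The EC359 points of CA9 (271 and 293) sit well below its vehicle points (582 and 663), while those of CA12, SLC16A1, BSG and SLC4A2 are interleaved.

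Within the lactate export system, the pair of transporters had different values. SLC16A1, the transporter found in most tissues, had normalized counts of 6407 and 6290 in the vehicle libraries and 6459 and 6198 in the EC359 libraries. The EC359 libraries lay on either side of the vehicle libraries. Its log2 fold change was -0.0044 (SE 0.0359), and the 95% interval of -0.08 to 0.08 was the second narrowest among the members after that of LDHB.

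SLC16A3, the transporter typical of strongly glycolytic cells, had normalized counts of 796 and 909 in the vehicle libraries and 599 and 723 in the EC359 libraries. Both EC359 libraries were below both vehicle libraries, but the nearest values of the groups, 723 and 796, were closer together than the replicates of either group. The means were 852 ± 80.1 and 661 ± 87.6 (SD, n = 2 each) and the log2 fold change was -0.37 (SE 0.0973, 95% interval -0.58 to -0.15). SLC16A3 was not called after adjustment over all tested genes. It was called without vehicle replicate 1 (log2 fold change -0.46), and its fitted log2 fold change was -0.24 without EC359 replicate 1 and -0.51 without EC359 replicate 2.

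BSG, the chaperone of both transporters, had normalized counts of 16677 and 19272 in the vehicle libraries and 17470 and 18760 in the EC359 libraries. The EC359 values fell between the vehicle values. The log2 fold change of 0.01 (SE 0.0587, 95% interval -0.12 to 0.14) was the only one of the 8 above 0, and it was -0.09 without vehicle replicate 1 and 0.12 without vehicle replicate 2.

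LDHB, the subunit that favors the step from lactate to pyruvate, had normalized counts of 40938 and 38991 in the vehicle libraries and 37340 and 36054 in the EC359 libraries. The groups did not overlap. The means were 39965 ± 1377 and 36697 ± 910 (SD, n = 2 each), a small log2 fold change of -0.12 (SE 0.0332, 95% interval -0.20 to -0.05). LDHB was not called. It was called without vehicle replicate 2, where the log2 fold change was -0.16, and the value was -0.09 without vehicle replicate 1.

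The bicarbonate transporters were at similar levels in both treatments. SLC4A2, the chloride-bicarbonate exchanger, had normalized counts of 5384 and 6112 in the vehicle libraries and 5347 and 5687 in the EC359 libraries, and the groups overlapped (log2 fold change -0.06, SE 0.0558, 95% interval -0.18 to 0.06). SLC4A7, the sodium-bicarbonate cotransporter, had 3993 and 3775 with vehicle and 3766 and 3675 with EC359. Here the groups did not overlap but nearly touched, at 3775 and 3766 (log2 fold change -0.06, SE 0.0415, 95% interval -0.15 to 0.03). Neither was called, and SLC4A2 moved from -0.15 without vehicle replicate 1 to 0.03 without vehicle replicate 2.

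**Figure D2:**
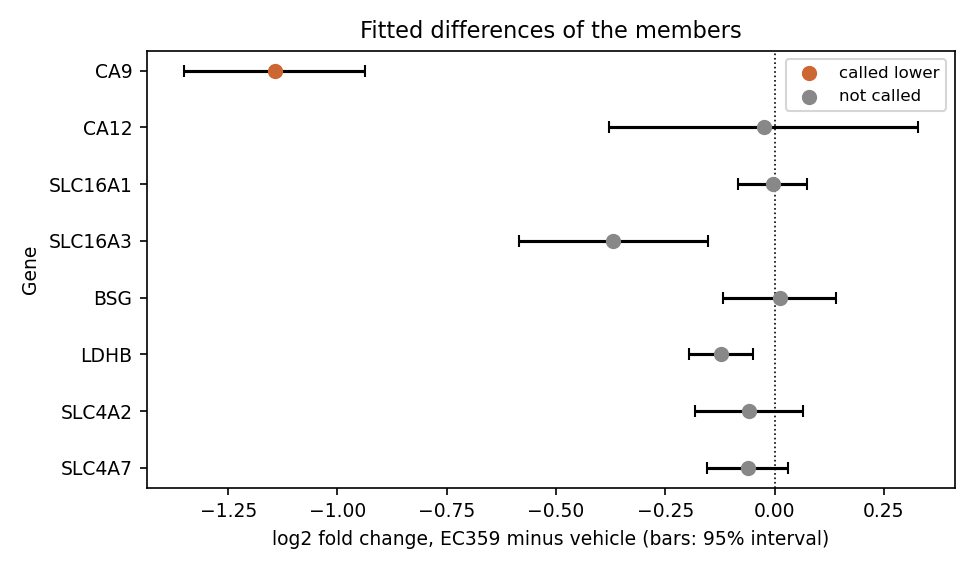
Fitted log2 fold change, EC359 minus vehicle, of the 8 tested genes (points) with 95% intervals of the single gene, not adjusted over genes (bars). CA9 (-1.14, orange) is the only called gene; the intervals of SLC16A3 and LDHB also lie below 0, and the other 5 include 0.

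Across the 8 tested members, 7 had a log2 fold change below 0 and 1 above, with a median of -0.06 beside 0.0029 over all tested genes. Both EC359 libraries lay below both vehicle libraries for 4 members: CA9, SLC16A3, LDHB and SLC4A7. Such separation of the groups, in either direction, was found in 51.5% of all tested genes, and in the lower direction in 25.4%. Since the same contrast chose the members, nothing is read from their count.

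Levels were compared between genes as CPM (counts scaled to library size) per kilobase of annotated exons. In vehicle cells the highest level was that of LDHB, at 475 ± 16.4, followed by BSG at 144 ± 14.7, SLC16A1 at 35.5 ± 0.463 and SLC4A2 at 26.9 ± 2.41 (SD, n = 2 each). SLC4A7 (14.3 ± 0.568) and CA9 (13.8 ± 1.27) did not differ beyond their spread. SLC16A3 followed at 3.27 ± 0.307, then CA12 at 0.498 ± 0.0354 and CA2 at 0.0491 ± 0.0417. The order of these 9 genes was the same when the longest transcript was used as the length, but several levels moved by more than 1.5 times, LDHB to 921, BSG to 275, SLC4A2 to 41.4 and SLC16A3 to 6.26. SLC4A7 and CA9 were then further apart, at 17.0 ± 0.676 and 14.3 ± 1.31. By annotated exons, CA9 stood at the 71.4th percentile of tested genes in vehicle cells, SLC16A3 at the 36.4th and LDHB at the 99.8th. By the longest transcript, they stood at the 63.6th, 43rd and 99.8th. With EC359 the level of CA9 by annotated exons was 6.25 ± 0.354 and that of SLC4A7 13.7 ± 0.237, so that these neighbors in the order were apart.

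Ratios between genes of the same library do not depend on how libraries are scaled, and they are given as a description, without a test. The ratio of CA9 to CA12 reads was 5.63 and 7.10 with vehicle and 2.68 and 3.17 with EC359. The groups did not overlap, and the mean ratio was 54% lower with EC359. The ratio of CA9 to CA2 ranged from 105 to 524 with overlapping groups, and rests on the 1 to 4 reads of CA2. For the transporters, the ratio of SLC16A3 to SLC16A1 was 0.124 and 0.145 with vehicle and 0.0927 and 0.117 with EC359, and the mean was 22.1% lower. BSG reads per read of both transporters were 2.32 and 2.68 with vehicle and 2.48 and 2.71 with EC359, and these overlapped. The ratio of SLC4A2 to SLC4A7 also overlapped, with a mean of 1.48 in both treatments.

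The ratio of LDHB to LDHA went the other way. It was 0.710 and 0.709 in the vehicle libraries and 0.857 and 0.871 in the EC359 libraries, a mean 21.8% higher with EC359, while LDHB counts themselves were not higher. LDHA, which had 57678 and 55010 normalized counts with vehicle, had 43594 and 41378 with EC359, and this was the larger of the pair of differences.

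**Figure D3:**
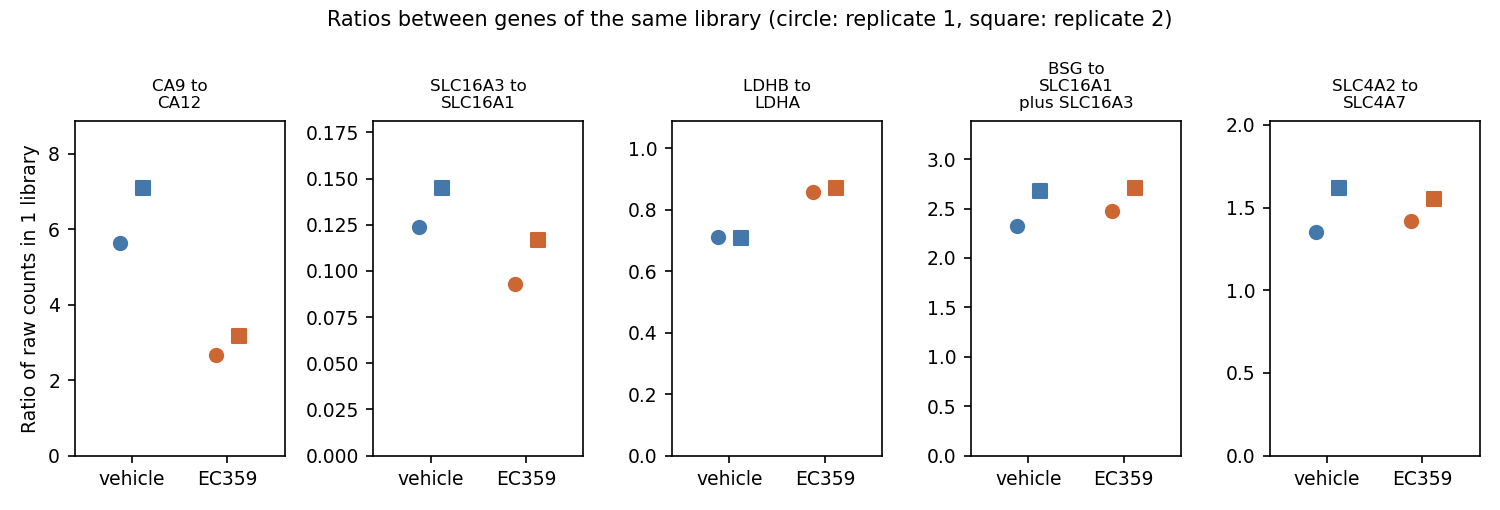
Ratio of raw counts of the named genes within each library, 1 panel per ratio with its own axis from 0; circles are replicate 1 and squares replicate 2, vehicle in blue and EC359 in orange. The ratio of CA9 to CA12 drops from 5.63 and 7.10 to 2.68 and 3.17, the ratio of LDHB to LDHA is higher in both EC359 libraries, and the last 2 panels overlap between treatments.

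Replicates of a treatment differed along the GC content of the transcripts, and the members followed this trend, on both sides of 0. Over the 10917 tested genes with at least 50 normalized counts and a GC value, GC content and the log2 difference of replicate 2 minus replicate 1 had a Spearman correlation of 0.512 for vehicle and 0.391 for EC359 (Pearson 0.486 and 0.341; across genes, which are not independent replicates). In CA9, with 59.9% GC, replicate 2 exceeded replicate 1 by 0.19 on the log2 scale with vehicle and by 0.12 with EC359. In SLC16A3, with 62.6% GC, it did so by 0.19 and 0.27, and BSG and SLC4A2, also above 60% GC, were higher in replicate 2 of both treatments. CA12, SLC16A1, LDHB and SLC4A7, all below 50% GC, were lower in replicate 2 of both treatments. With each library's GC trend removed, the log2 fold change was -1.15 for CA9, -0.41 for SLC16A3 and -0.11 for LDHB, and these 3 of the 8 members were then called, in a fit that called 8.12% of all tested genes.

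**Figure D4:**
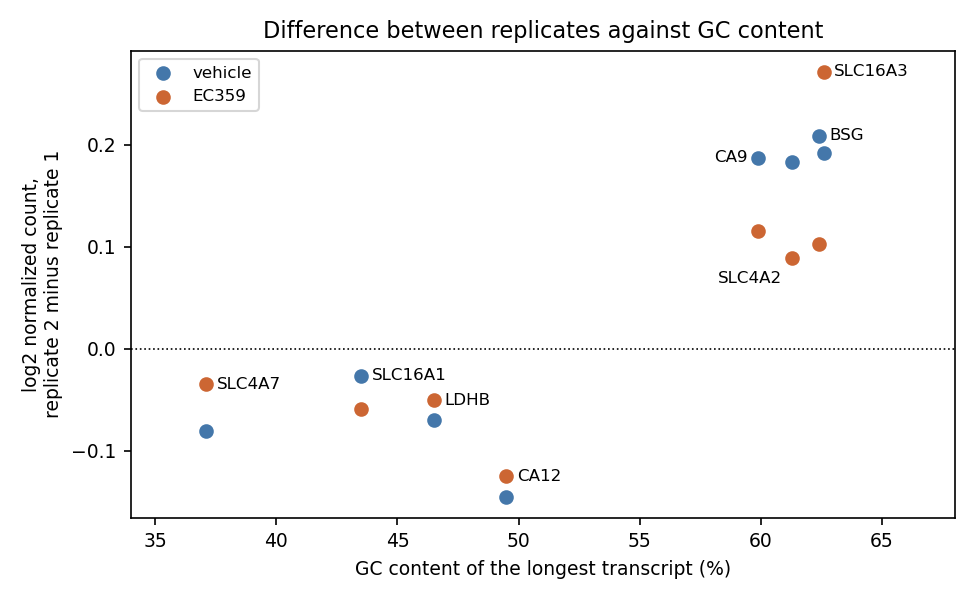
Log2 difference between replicate 2 and replicate 1 of each treatment (vertical axis) against GC content of the longest transcript in percent (horizontal axis) for the 8 tested genes; each gene has a vehicle point in blue and an EC359 point in orange. The 4 genes with 59.9% GC or more lie above 0 in both treatments and the 4 genes with 49.5% or less lie below.

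The exons of CA9 overlap those of a gene on the other strand. ARHGEF39, listed under its older symbol C9orf100, covers 571 exon bases of CA9, or 35.7%. The libraries were made with a stranded kit according to the labels, while the series design reads as if the kit were unstranded. The strand setting of the counting is not given in the sources used here. C9orf100 averaged 488 ± 16.9 normalized counts in vehicle and 518 ± 21.2 in EC359 libraries (SD, n = 2 each) and was not called (log2 fold change 0.09, SE 0.0777, edgeR adjusted p = 0.560). The ratio of CA9 to C9orf100 reads was 1.22 and 1.33 with vehicle and 0.538 and 0.550 with EC359, 57.4% lower on average. CSNK1D overlaps 5.22% of the exon bases of SLC16A3 on the other strand, and it was not called either (log2 fold change 0.07, edgeR adjusted p = 0.468). Of the LDHB transcript, 73.1% of 50-base windows also occur on the same strand in transcripts of other annotated genes, which are not listed in the count tables. Most of these, 71.7% of windows, are in ENSG00000285854, whose exons overlap 997 exon bases of LDHB itself. The pseudogene LDHBP2 shares 2.87% of windows. How far reads of these genes entered the LDHB counts was not tested. SLC4A2 shared 12.4% of windows with a long noncoding RNA on the other strand. SLC16A1, BSG and SLC4A7 shared no window with another gene. Noncoding RNAs on the other strand do overlap 3.64% of the exon bases of SLC16A1 and 3.17% of those of BSG.

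The genes around CA9 were tested in the same fit. Of 13 genes in the tables whose annotated start was within 100 kb, 9 were tested and 0 were called with edgeR, DESeq2 or limma voom. With edgeR a single gene of the 9, RMRP, was at an unadjusted p under 0.05, beside 21.6% of all tested genes. With DESeq2 and with limma voom 0 of the 9 were. RMRP was called without EC359 replicate 2, where its log2 fold change was 3.23. The fitted log2 fold changes of the other 8 ran from -0.10 for RGP1 to 0.19 for TESK1, with 0.03 for TPM2, the tropomyosin gene that follows CA9.

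The genes whose profile over the 4 libraries was nearest to that of CA9 were found by the root mean square difference of centered log2 values among 11204 genes with at least 50 normalized counts. PPFIA4, a liprin family member, was nearest, at 0.0707. It had normalized counts of 118 and 125 in the vehicle libraries and 57.5 and 56.0 in the EC359 libraries (log2 fold change -1.09). TMEM71 (distance 0.189, log2 fold change -0.93) and PFKFB4, which sets the level of an activator of glycolysis (distance 0.194, log2 fold change -0.76), came next and were also called. HYAL3 (distance 0.229) and KRT15 (distance 0.236) followed and were not called. Since the profile of CA9 is mainly its drop with EC359, this selection fixes that the 5 genes were lower with EC359, and their decreases and calls are no further evidence.

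The wider system of acid and lactate handling was read from 7 gene families holding 102 genes in the tables, of which 66 were tested. LDHA and PDK1 were called, both lower, and no gene was called higher, beside 1.09% of all tested genes called. With the GC trend removed, 6 of the 66 were called, ATP6V0C and ATP6V1C1 higher and LDHA, PDK1, ATP6V1F and SLC9A3R2 lower, beside 8.12% of all tested genes. In all, 38 of the 66 had a log2 fold change above 0 and 28 below, with a median of 0.02 beside 0.0029 over all tested genes.

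LDHA and PDK1 belong to the 12 tested enzymes and carriers of lactate and pyruvate, of which the other 10 were not called. LDHA fell from 56344 ± 1886 to 42486 ± 1567 normalized counts (SD, n = 2 each), a log2 fold change of -0.41 (SE 0.0349, edgeR adjusted p = 0.000581). PDK1, the kinase that holds pyruvate dehydrogenase inactive, had normalized counts of 3192 and 2890 in the vehicle libraries and 2407 and 2352 in the EC359 libraries. It fell by 0.35 on the log2 scale (SE 0.0523, edgeR adjusted p = 0.00634). For both genes the EC359 libraries lay below the vehicle libraries. With EC359 replicate 1 or replicate 2 left out neither passed (edgeR adjusted p = 0.231 and 0.254 for LDHA, 0.274 and 0.30 for PDK1), while both log2 fold changes remained below 0.

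**Figure D5:**
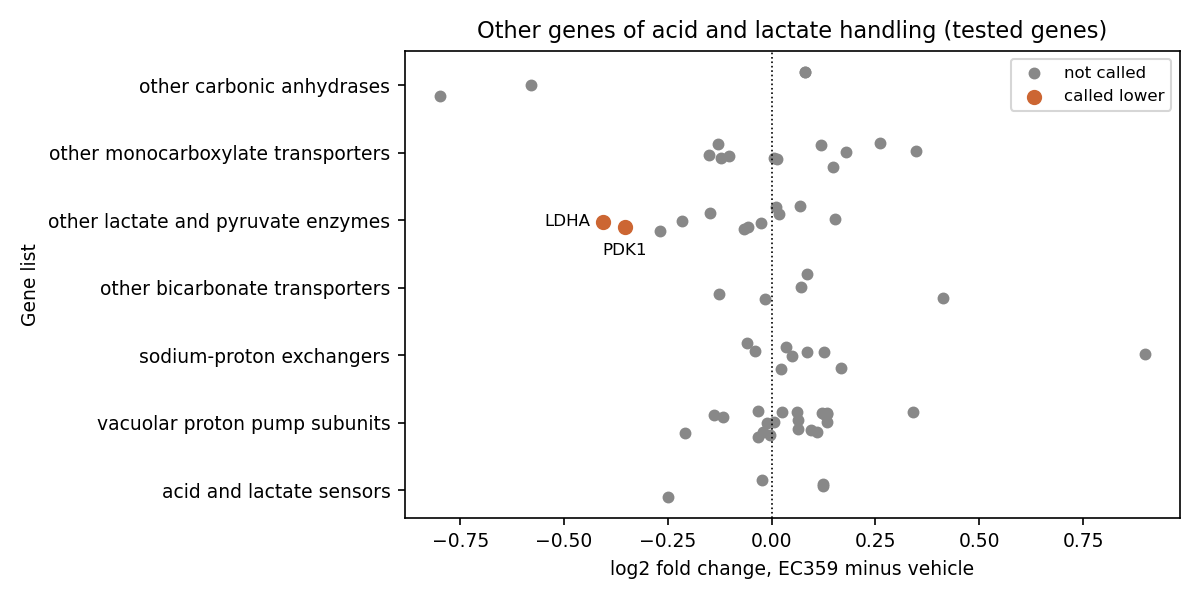
Log2 fold change, EC359 minus vehicle, of the 66 tested genes in 7 families of acid and lactate handling, 1 point per gene, spread vertically within a family for legibility only. The called genes, LDHA (-0.41) and PDK1 (-0.35), are in orange, and the other 64 lie on both sides of 0.

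No other family held a called gene. Of the other carbonic anhydrases, 4 of 12 were tested, with 0 at an unadjusted p under 0.05 in edgeR, and the remaining 8 had at most 6 reads in any library. CA13 and CA5B, the best expressed of them, stood at 1.70 ± 0.138 and 0.981 ± 0.0515 CPM per kilobase in vehicle cells, several times below CA9. CA8, a family member without catalytic activity, had the lowest adjusted p of the 4 (log2 fold change -0.80, SE 0.3974, edgeR adjusted p = 0.275), at mean normalized counts of 16.7 ± 3.13 (vehicle) and 9.56 ± 1.01 (EC359).

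Among the other monocarboxylate transporters and their ancillary proteins, 0 of 11 tested were called. At an unadjusted p under 0.05 in edgeR were 2 of the 11, beside 21.6% of all tested genes. SLC16A7 (MCT2) had the lowest adjusted p, with means of 205 ± 2.98 (vehicle) and 260 ± 35.0 normalized counts (EC359; log2 fold change 0.35, edgeR adjusted p = 0.135). Of the other bicarbonate transporters 0 of 5 were called and, beside the same 21.6%, 1 was at an unadjusted p under 0.05. This was SLC4A4, a sodium-bicarbonate cotransporter, at 207 and 209 (vehicle) against 284 and 270 normalized counts (EC359; log2 fold change 0.41, SE 0.1037, edgeR adjusted p = 0.0526). Its groups did not overlap.

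The sodium-proton exchangers and their regulators had 0 of 9 called and 2 at an unadjusted p under 0.05, beside 21.6% of all tested genes. The lowest adjusted p was that of the scaffold SLC9A3R1 (log2 fold change 0.17, edgeR adjusted p = 0.151). Of the subunits of the vacuolar proton pump, which acidifies lysosomes and endosomes, 0 of 21 were called. At an unadjusted p under 0.05, 7 subunits were higher and 1 lower, 8 of 21 beside 21.6% of all tested genes. The largest of the 7 higher values was that of ATP6V0C, with 1872 and 2372 normalized counts in vehicle against 2477 and 2897 in EC359 libraries (log2 fold change 0.34, SE 0.0990, edgeR adjusted p = 0.0793). It was called without vehicle replicate 2, at a log2 fold change of 0.52. The other 6, ATP6V1B2, ATP6V1C1, ATP6V1D, ATP6V1G1, ATP6V1H and ATP6V0A2, had log2 fold changes between 0.10 and 0.13. The lower one, ATP6V1F, had normalized counts of 2635 and 2727 in the vehicle libraries and 2274 and 2367 in the EC359 libraries (log2 fold change -0.21, SE 0.0453, edgeR adjusted p = 0.0301). Of the acid and lactate sensors 0 of 4 were called and 0 were at an unadjusted p under 0.05. ACCN2, the older symbol of the acid-sensing channel ASIC1, had the lowest adjusted p, 0.267 in edgeR, at a log2 fold change of -0.25. DESeq2 and limma voom called only LDHA and PDK1 among the 66 genes, although DESeq2 with its defaults gave 30 of them no adjusted p.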

How the data were processed

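RNA of 2 vehicle and 2 EC359 libraries was sequenced as 50-base single reads. Alignment to UCSC hg19 used TopHat2 2.0.8b and RefSeq genes were counted with HTSeq by the authors, who deposited unnormalized read counts for each symbol. Between 10.9% and 12% of reads lay in no gene and 0.852% to 0.879% in several; these rows were left out.

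Counts were filtered (filterByExpr, minimum count 10, minimum total 15), scaled by TMM and tested with the quasi-likelihood test of edgeR 4.0.16 in R 4.3.3, with Benjamini-Hochberg adjustment over 12706 genes and calls at 0.01, the threshold of the study, which used DESeq. The procedure was tested on simulated data. SE is the log2 fold change over the square root of F. Exon positions, lengths, GC content and shared windows came from GENCODE on GRCh37, which held 91.8% of the symbols. Promoters came from RefSeq for 7 of 9 members, without SLC16A1 and without CA2, which was left out of the search. Replicates differed by more than sampling noise (chi-square per degree of freedom 3.69 and 2.65).

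The members and lists were chosen with earlier results of these data known. Named were all members, the called genes of each family or else the gene with its lowest adjusted p, the 5 nearest profiles, the neighbors of CA9 and LIFR, IL6ST and LIF; other genes were named after their values were seen. Alternatives were RLE factors, total counts, DESeq2 1.42.0, limma 3.58.1 voom, other filters and threshold, a replicate block, GC correction and leaving out each library. Of the marker lists, 1 gene is not reported here.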

Additional observations from a re-analysis of the deposited data

How the results depend on the processing

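The log2 fold changes of CA9, SLC16A3, LDHB, SLC4A7, LDHA and PDK1 were below 0 under all 13 alternatives, with ranges of -1.24 to -1.05, -0.51 to -0.24, -0.16 to -0.09, -0.10 to -0.02, -0.45 to -0.37 and -0.43 to -0.28. Those of CA12, SLC16A1, BSG and SLC4A2 took both signs. Of all tested genes, 139 were called; DESeq2 called 230, no low-count filter 61, removal of the GC trend 1032 and an adjusted p under 0.05 549. Leaving out a library gave 0 to 467, where the lone library of a treatment is assumed to vary like the others: 0 without EC359 replicate 1 (1477 at an unadjusted p under 0.05 in edgeR) and 2 without EC359 replicate 2. Members called were 1, and 0 with DESeq2, whose defaults gave CA9 no adjusted p (3 at an unadjusted p under 0.05; CA9 was called without independent filtering, an alternative added after seeing the data). GC removal called 3 members, and leaving out a library 0 to 2 (2 at an unadjusted p under 0.05 without either EC359 library, in edgeR). Of the 66 other genes, 2 were called, and 1 with no filter, 6 with GC removal (2 higher, 4 lower) and 0 to 3 with a library left out (7 and 8 at an unadjusted p under 0.05 without EC359 replicate 1 and 2, in edgeR). With the replicate number as a block, 1539 of the 12706 tested genes were called. Among them were 3 members (CA9, SLC16A3, LDHB), 8 of the 66 and RMRP (log2 fold change 2.22). Of the 8, 5 were higher (ATP6V0C, ATP6V1C1, ATP6V1D, ATP6V1H and SLC4A4) and 3 lower (LDHA, PDK1 and ATP6V1F). The labels give no shared origin for the numbers. Over all tested genes, the deviations of same-numbered libraries had a correlation of 0.112. Replicate 2 relative to replicate 1 nevertheless rose with GC content in both treatments (Spearman correlation 0.512 with vehicle and 0.391 with EC359). The cause of these differences in counts was not tested. With 2 libraries per treatment, CA2 was below what the depth resolves.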

Other observations

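RMRP, the RNA component of RNase MRP and a neighbor of CA9, had 62.2 and 46.7 normalized counts in the vehicle libraries but 511 and 31.7 in the EC359 libraries. A single EC359 library, replicate 1, was high, and the gene was not called in the fit of all 4 libraries (log2 fold change 2.33, SE 0.90, edgeR adjusted p = 0.168), but was called without EC359 replicate 2 and with a replicate block.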
